A study of Homo sapiens with 12 samples.

Results

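The 36 genes described here are known targets of the hypoxia-inducible factors (HIFs) that lie outside glycolysis and are not angiogenic ligands. They were taken by symbol from the table of raw gene counts, where all 36 were found among 45478 genes. Each of the 36 also passed the filter on low counts that left 19929 genes for testing, although CA9 passed through the A498 libraries alone and CXCR4 through those of A498 and resistant A498. The members were read in 786-O and A498, both VHL-deficient lines of clear cell renal cell carcinoma, and in a sunitinib-resistant line derived from each. The 2 derived lines are called resistant 786-O and resistant A498, and the names 786-O and A498 alone mean the parental lines. The question put to each gene was whether its mRNA followed the level of HIF1A mRNA across the groups or was kept up where HIF1A mRNA was low.

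HIFs are pairs of an oxygen-regulated alpha subunit, HIF1A or HIF2A (encoded by EPAS1), with the partner ARNT. In well-oxygenated cells prolyl hydroxylases of the EGLN family mark the alpha subunits for destruction by the VHL protein, so that cells without VHL keep them in normal oxygen and run their target genes as if hypoxic. The targets outside glycolysis act on pH, mitochondrial turnover, histone demethylation, collagen processing, secreted signals, transcription, stress responses and glycogen. 786-O is widely used as a line that makes HIF2A without HIF1A. Whether A498 makes HIF1A protein cannot be read from its mRNA.

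Each of the 4 groups held 3 libraries of polyA RNA. 786-O and A498 were the unselected parental lines. Resistant 786-O had been selected in 4 µM and resistant A498 in 2 µM sunitinib, an inhibitor of receptor tyrosine kinases, over 4 months or more than 20 passages. All cells were grown in high-glucose DMEM with serum, the sunitinib was present throughout the selection, and every library is labelled with no treatment. The bracketed name in every sample title also holds the letters veh, whose meaning the titles do not give. Each resistant line is a single selected culture that the study calls a clone. Nothing says whether the 3 libraries of a group came from separate cultures, so the p-values measure only the spread between these libraries. Each group also carries a batch label of its own, and batch and group cannot be told apart.

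Total counts ran from 40845091 to 47972092 in 786-O, from 42643735 to 46888482 in resistant 786-O, from 21686648 to 34951585 in A498 and from 20042519 to 25831163 in resistant A498. All 7 markers of renal epithelial cancer cells stood at 1 CPM or more in every group, while 6 T cell markers summed to at most 1.0 CPM and 5 endothelial markers to at most 2.72 CPM in any library. CD3D, CD3E, CD2, PTPRC and CDH5 had 3 counts or fewer in every library. Here CPM is the count divided by the normalised library size and multiplied by 1000000.

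The libraries labelled resistant A498 stood apart from their label. Their log2 profiles over 16650 genes correlated with resistant 786-O at a median r of 0.985, with 786-O at 0.956 and with A498 at 0.886, next to 0.884 between 786-O and A498. Across 62 genes at 10 CPM or more in A498 and at 3 counts or fewer in every 786-O library, the libraries labelled resistant A498 held a median of 0.362% of the A498 level. For 26 genes of the opposite pattern they held a median of 79.9% of the 786-O level. Differences between resistant A498 and A498 therefore contain a difference between cell lines that cannot be told apart from selection in sunitinib, and each resistant A498 value is set below against A498 and against 786-O. The comparisons share libraries, so their values are given side by side.

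HIF1A mRNA was high only in A498. It stood at 311, 312 and 292 CPM in A498, at 11.1, 11.2 and 10.0 in 786-O, at 9.39, 9.65 and 8.50 in resistant 786-O and at 8.87, 8.42 and 9.07 in resistant A498. No library of A498 came near those of the other groups, and A498 exceeded 786-O 28.4-fold (log2 fold change 4.83 ± 0.064 SE, adjusted p = 4.5e-17). EPAS1, in contrast, was at 156, 165 and 163 CPM in 786-O and at 163, 158 and 158 in A498, and the difference did not pass the test (log2 -0.02 ± 0.087, adjusted p = 0.88). A gene is called where the adjusted p of edgeR's quasi-likelihood test is under 0.05. EPAS1 reached 211, 165 and 229 CPM in resistant 786-O and 229, 231 and 249 in resistant A498. It was called higher than in 786-O in both, by 0.32 ± 0.086 and 0.55 ± 0.087 on the log2 scale, although the second resistant 786-O library lay within the range of the parental ones. HIF1A and HIF2A protein were not measured in these data, and "HIF1A level" below means its mRNA.

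Other parts of the oxygen-sensing machinery were read in the same way. Of 12 listed factors 11 were tested, HIF3A having too few counts, and 5 were called higher and 2 lower in A498 than in 786-O. That is 63.6% called, below the 74.2% of all genes tested, of which 36.1% were called higher and 38.2% lower. EGLN3, a prolyl hydroxylase that is itself induced by HIF, was at 113, 102 and 94.3 CPM in A498 and at 28.9 to 32.0 in 786-O (3.41-fold, log2 1.77 ± 0.13, adjusted p = 4.6e-09). Its resistant 786-O libraries held 56.8, 36.6 and 54.4 CPM and those of resistant A498 31.1, 34.0 and 33.9. ARNT was the lower partner in A498, at 18.1 to 21.3 CPM against 33.1 to 34.9 in 786-O (log2 -0.77 ± 0.062, adjusted p = 2e-08), and at 32.8 to 33.4 CPM in resistant A498. ARNT2 rose in resistant 786-O from 13.3 to 14.1 CPM in the parental libraries to 37.7, 23.0 and 43.2 CPM (log2 1.34 ± 0.16, adjusted p = 2.5e-06). It was also called higher than in 786-O in A498 (0.77 ± 0.16, adjusted p = 5.5e-04) and in resistant A498 (1.23 ± 0.16, adjusted p = 9.3e-06).

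**Figure D1:**
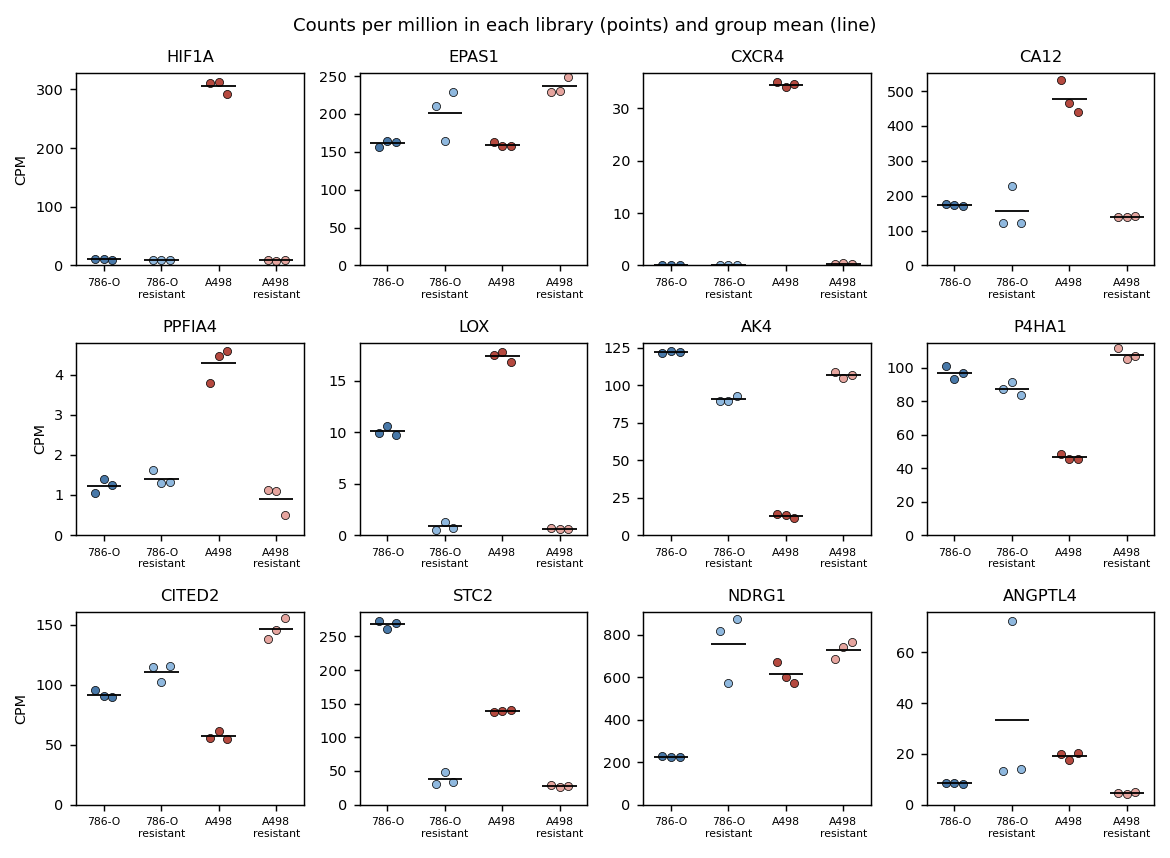
Counts scaled to library size (CPM, linear axes from 0) of HIF1A, EPAS1 and 10 members in each of the 12 libraries, with points for libraries and lines for group means. HIF1A is at 292 to 312 CPM in A498 and at 8.42 to 11.2 CPM elsewhere, CXCR4 has the same shape, AK4 and P4HA1 are lowest in A498, and LOX and STC2 are low in both resistant groups.

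The sequence just upstream of each member's start was searched for the core of the hypoxia response element, the letters that HIF dimers are known to read. The letters searched were ACGTG and GCGTG on both strands, and the E-box CACGTG overlaps the first of them. RefSeq promoters (GRCh38.p14) were found for 30 of the 36 members with 45 starts, 8 members having several, and the 250 bases before each start were searched. A match was present at 38 of 45 starts (84.4%), against 43.2% of all 35116 starts in the table and 53.1% of the 18097 starts of genes tested here. ACGTG was at 51.1% of the members' starts and 21.7% of the starts of genes tested, and CACGTG at 20% and 7.92%. The members' windows were also richer in G and C, with a median of 68.4% against 64% for genes tested, and the part of this in the matches was not tested. TMEM45A and P4HA2 held no match in these windows.

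The 6 windows printed below belong to members described in the next paragraphs. They are CXCR4 and CA9 with the largest excess in A498, AK4 and FAM162A with the largest deficit, and PLOD1 and DDIT4, the highest in 786-O by CPM among those kept up at low HIF1A. Each runs 5′ to 3′ along the gene's strand and ends at the base before the most upstream RefSeq start. Which start these cells use is not known. Capitals mark ACGTG or GCGTG on either strand, a match being a description of the letters only.
CXCR4, chr2:136118150-136118399, minus strand: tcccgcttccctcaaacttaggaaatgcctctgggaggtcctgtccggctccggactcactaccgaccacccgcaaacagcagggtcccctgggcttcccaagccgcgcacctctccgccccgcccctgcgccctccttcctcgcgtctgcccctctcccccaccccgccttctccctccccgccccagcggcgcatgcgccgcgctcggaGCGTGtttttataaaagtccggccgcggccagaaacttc
CA9, chr9:35673678-35673927, plus strand: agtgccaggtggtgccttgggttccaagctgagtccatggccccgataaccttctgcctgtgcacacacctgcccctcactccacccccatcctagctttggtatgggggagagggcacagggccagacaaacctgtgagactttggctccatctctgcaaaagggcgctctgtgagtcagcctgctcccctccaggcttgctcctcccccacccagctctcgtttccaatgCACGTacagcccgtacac
AK4, chr1:65147302-65147551, plus strand: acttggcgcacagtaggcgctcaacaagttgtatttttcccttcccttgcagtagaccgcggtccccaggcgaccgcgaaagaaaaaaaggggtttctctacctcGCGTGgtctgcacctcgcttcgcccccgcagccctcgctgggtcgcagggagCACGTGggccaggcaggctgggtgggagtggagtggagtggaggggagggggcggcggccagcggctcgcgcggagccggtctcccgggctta
FAM162A, chr3:122383932-122384181, plus strand: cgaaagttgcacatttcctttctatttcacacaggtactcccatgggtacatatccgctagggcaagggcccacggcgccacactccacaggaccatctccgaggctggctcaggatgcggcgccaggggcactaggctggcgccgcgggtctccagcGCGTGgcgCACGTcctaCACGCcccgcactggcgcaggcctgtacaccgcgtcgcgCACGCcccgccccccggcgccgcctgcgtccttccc
PLOD1, chr1:11934467-11934716, plus strand: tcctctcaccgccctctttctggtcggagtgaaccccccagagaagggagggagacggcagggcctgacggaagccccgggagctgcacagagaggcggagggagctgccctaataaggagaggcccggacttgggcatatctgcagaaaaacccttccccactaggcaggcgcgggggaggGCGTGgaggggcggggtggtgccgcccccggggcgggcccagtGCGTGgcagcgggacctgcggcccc
DDIT4, chr10:72273674-72273923, plus strand: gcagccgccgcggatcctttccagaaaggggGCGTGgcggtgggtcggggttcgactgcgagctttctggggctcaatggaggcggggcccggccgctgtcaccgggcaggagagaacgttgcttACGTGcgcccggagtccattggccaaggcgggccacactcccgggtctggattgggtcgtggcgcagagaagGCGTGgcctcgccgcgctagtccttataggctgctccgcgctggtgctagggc

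CXCR4 has 1 match 35 bases before its start and CA9 has 1 at 14 bases. AK4 holds 3, of which the pair at CACGTG is the E-box read on both strands. FAM162A holds 4 and is low in A498, while DDIT4 holds 3 and PLOD1 2. A match was present at 9 of 10 starts of members that followed HIF1A mRNA, at 21 of 25 starts of members kept up without it and at 8 of 10 starts of the others, by the classes defined below. CXCR4 and LOX each gave several of the starts of members that followed HIF1A mRNA.

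Between the parental lines the members were split evenly. In A498 14 of 36 members were called higher than in 786-O, where 36.1% of all genes tested were called higher, and 14 were called lower, where 38.2% of genes were. The median log2 fold change was -0.01 over the members and -0.04 over all genes. The members' shares are close to those of all genes and are not a result about the members. Of the 36 members 8 were called more than 2-fold above and 4 more than 2-fold below their 786-O level. Of the 19929 genes tested 3953 and 2407 were, so these counts are not a result about the members either. The 8 include CA9, which passed the filter through A498 alone.

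**Figure D2:**
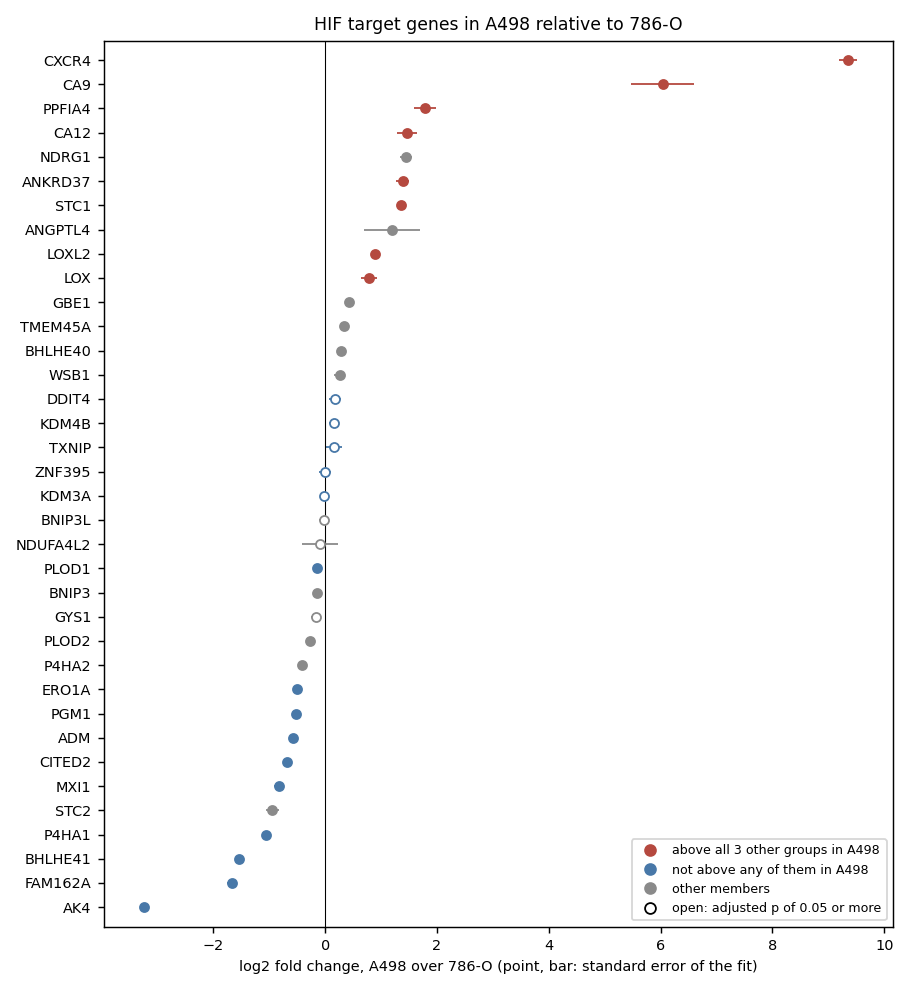
Log2 fold change of the 36 members in A498 relative to 786-O, with points for the fitted value and bars for its standard error, filled where the adjusted p was under 0.05. Values run from -3.25 for AK4 to 9.35 for CXCR4, with members above all 3 other groups in red, members above none of them in blue and the others in grey.

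A member was taken to follow HIF1A where A498 was called higher than each of the 3 other groups and all 3 A498 libraries lay above the other 9. This held for 8 of 36 members (22.2%), namely CA9, CA12, LOX, LOXL2, STC1, ANKRD37, PPFIA4 and CXCR4. The place of CA9 was fixed by the filter, which it passed through A498 alone, and 7 of the 35 other members (20%) met the rule. It took 21.9% of all genes tested, so the share says nothing particular about HIF targets. The rule asks only whether A498 was highest, so HIF1A level and other differences of A498 cannot be told apart by it. In resistant 786-O HIF1A mRNA was called lower than in 786-O (log2 -0.23), as was LOX (-3.62). STC1 (0.97), ANKRD37 (0.82) and LOXL2 (0.40) were called higher there. CA9, CA12, PPFIA4 and CXCR4 were not called. A member was taken as kept up where A498 was called higher than none of the 3 groups and each of these had a mean of at least 5 CPM. This held for 15 members (41.7%), against 27% of all genes, a share that depends on the 5 CPM minimum. Among genes at 5 CPM or more in the 3 groups, 15 of 29 members (51.7%) and 49.5% of 10864 genes were kept up. The 15 were FAM162A, AK4, KDM3A, KDM4B, P4HA1, PLOD1, ERO1A, ADM, BHLHE41, MXI1, CITED2, ZNF395, DDIT4, TXNIP and PGM1. KDM4B and DDIT4 left the class with DESeq2 size factors, library size alone, 10 counts in every library, the DESeq2 Wald test and without the second resistant 786-O library, since each was then called higher in A498 than in 786-O. TXNIP left it without that library and with the GC and length trends removed. WSB1 entered it when any one library of 786-O or A498 was left out. In 9 of the 15 members A498 was called lower than each other group with all its libraries below the other 9 (25% of members, 20.9% of all genes). Since resistant 786-O and the libraries labelled resistant A498 resemble 786-O, the rule was also run against 786-O alone. There 14 members (38.9%) followed HIF1A (35.5% of genes did) and 21 (58.3%) were kept up (40.4% of genes). The kept-up share again depends on the 5 CPM minimum, and it was not set against genes at that level.

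The carbonic anhydrases, which hydrate CO2 at the cell surface and so regulate pH, were both highest in A498, for CA9 as its passage through the filter required. CA9, the classical hypoxia marker of renal carcinoma, was nonetheless barely expressed, with 54, 23 and 34 counts in the A498 libraries (1.56, 1.07 and 1.25 CPM). The other 9 libraries held 3 counts between them, with 2 in 786-O, none in resistant 786-O and 1 in resistant A498. A498 exceeded 786-O 81.2-fold by summed counts, with a 95% counting interval of 21.9 to 679. It lay 61.5-fold above resistant 786-O when that group is set to a floor of 3 counts, the exact lower limit for its 0 counts being 49.2-fold. CA12 was abundant throughout, at 175, 174 and 171 CPM in 786-O, 122, 227 and 123 in resistant 786-O, 531, 465 and 439.8 in A498 and 138, 139 and 142 in resistant A498. All A498 libraries were above all others, and the excess over 786-O was 2.76-fold (log2 1.47 ± 0.17, adjusted p = 1.6e-06). CA12 in resistant 786-O did not pass the test against 786-O (log2 -0.14, adjusted p = 0.48), a value that its second library decided, since without it the change was -0.50 with an adjusted p of 4.2e-11.

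CXCR4, the receptor of the chemokine CXCL12, had the largest difference of any member. It stood at 35.0, 34.1 and 34.6 CPM in A498, against 2 counts in each 786-O library (0.044 to 0.053 CPM), 5, 8 and 4 counts in resistant 786-O and 10, 9 and 8 counts in resistant A498. By summed counts A498 was 703-fold above 786-O (95% counting interval 323 to 1918), 282-fold above resistant 786-O (176 to 485) and 94.1-fold above resistant A498 (64.5 to 143). The libraries of A498 were far from all others. The intervals cover counting error only.

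No mitochondrial member was called higher in A498 than in 786-O and 3 of 5 were called lower, next to 36.1% and 38.2% of all genes. AK4, a mitochondrial adenylate kinase, stood at 122, 123 and 122 CPM in 786-O, 89.6, 89.9 and 93.2 in resistant 786-O, 13.9, 13.2 and 11.4 in A498 and 109, 105 and 107 in resistant A498. The groups did not overlap, and A498 held 0.105 of the 786-O level (log2 -3.25 ± 0.063, adjusted p = 1.7e-15). FAM162A, a mitochondrial protein linked to cell death in hypoxia, was at 15.3 to 16.4 CPM in 786-O, 10.8 to 13.02 in resistant 786-O, 4.46 to 5.35 in A498 and 13.6 to 14.97 in resistant A498. Its A498 value was 0.314 of that in 786-O (log2 -1.67 ± 0.094, adjusted p = 3e-10). BNIP3 and BNIP3L, the receptors that mark mitochondria for autophagy, varied little. BNIP3 ranged from 63.4 to 84.6 CPM over all 12 libraries, and its call in A498 against 786-O (log2 -0.15) was lost with DESeq2 size factors (-0.10, adjusted p = 0.074). BNIP3L ranged from 26.2 to 45.5 CPM and was lower in resistant 786-O, at 33.3, 26.2 and 29.4 CPM against 41.7 to 42.9 in 786-O (log2 -0.51 ± 0.076, adjusted p = 3e-05). NDUFA4L2, an inhibitory partner of respiratory complex I that is often abundant in renal carcinoma, stayed below 0.9 CPM in every library, with 9 to 33 counts, and passed the test in no comparison.

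The histone demethylases KDM3A and KDM4B, which remove methyl marks from histone H3 lysine 9, were kept up, KDM4B less firmly. KDM3A was at 33.7 to 35.3 CPM in 786-O and 32.3 to 34.8 in A498, and at 36.03 to 42.1 in resistant 786-O and 43.2 to 45.3 in resistant A498. KDM4B was at 26.9 to 27.9 CPM in 786-O, 30.0 to 32.0 in A498, 41.0, 32.0 and 45.4 in resistant 786-O and 43.3 to 43.8 in resistant A498. Both passed as higher in each resistant line against 786-O, KDM4B by 0.52 ± 0.091 in resistant 786-O and 0.66 ± 0.093 in resistant A498 on the log2 scale. The KDM4B difference in resistant 786-O depended on gene length and GC content, being -0.011 once these trends were removed, and its difference of A498 from 786-O turned from 0.16, which did not pass (adjusted p = 0.13), to -0.42. Other settings called KDM4B higher in A498, at 0.22 with DESeq2 size factors (adjusted p = 0.045), 0.24 with library size alone, 0.23 with 10 counts in every library, 0.21 with the 2 groups alone (adjusted p = 3.5e-04) and 0.16 without the second resistant 786-O library (adjusted p = 0.0059).

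The collagen and matrix members were divided, with 2 of 7 called higher and 5 called lower in A498, where 36.1% and 38.2% of all genes were. LOX and LOXL2, which cross-link collagen, met the rule for following HIF1A, whereas the hydroxylases that act on collagen inside the cell were lower. LOX lies on chromosome 5 (GRCh38, 122063195 to 122078413, minus strand). It was at 9.96, 10.6 and 9.78 CPM in 786-O, 0.531, 1.28 and 0.678 in resistant 786-O, 17.6, 17.8 and 16.8 in A498 and 0.671, 0.622 and 0.586 in resistant A498. Both resistant groups lay below both parental lines without overlap. LOX fell in resistant 786-O (log2 fold change -3.62 ± 0.18, adjusted p = 2.3e-10), and it was lower in resistant A498 than in A498 (-4.79 ± 0.21, adjusted p = 2.1e-11) and than in 786-O (-4.00 ± 0.21, adjusted p = 5.6e-10). HIF1A mRNA was at 10.0 to 11.2 CPM in 786-O and at 8.42 to 9.65 CPM in the resistant groups. It was called lower than in 786-O in resistant 786-O (log2 -0.23, adjusted p = 0.0067) and in resistant A498 (-0.29, adjusted p = 0.0025). A link between these differences and those of LOX was not tested. LOXL2 behaved otherwise, at 447 to 473 CPM in 786-O, 613, 542 and 666 in resistant 786-O, 839 to 857 in A498 and 517 to 531 in resistant A498, and was called higher than 786-O in every other group. Its call in resistant A498 (log2 0.19, adjusted p = 0.012) was lost without the second 786-O library (0.16, adjusted p = 0.056), and the calls in both resistant groups were lost with the GC and length trends removed (0.13 in resistant 786-O and 0.07 in resistant A498).

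P4HA1 and P4HA2 encode the catalytic subunits of collagen prolyl hydroxylase. P4HA1 stood at 101, 93.3 and 96.6 CPM in 786-O, 87.2, 91.6 and 83.5 in resistant 786-O, 48.5, 45.6 and 45.6 in A498 and 111, 105 and 107 in resistant A498. A498 was below all other libraries at 0.481 of 786-O (log2 -1.05 ± 0.052, adjusted p = 6.7e-11). In resistant 786-O the small decrease of P4HA1 (log2 -0.15, adjusted p = 0.016) was lost without the first 786-O library or replicate 1 or 3 of resistant 786-O (adjusted p = 0.072, 0.075 and 0.13) and turned to 0.13 with the GC and length trends removed. P4HA2 ranged from 132 to 249 CPM and was lowest in resistant A498, at 132 to 141 CPM (log2 -0.72 ± 0.060 against 786-O, adjusted p = 7.4e-08). PLOD1, a lysyl hydroxylase, was at 356 to 378 CPM in 786-O, 328 to 340.4 in A498, 474 to 534 in resistant 786-O and 446 to 462 in resistant A498. It was higher in both resistant lines than in either parental line, by 0.46 ± 0.047 in resistant 786-O and 0.31 ± 0.047 in resistant A498 against 786-O. Its lower call in A498 against 786-O (log2 -0.14) was lost with DESeq2 size factors (-0.09, adjusted p = 0.13), library size alone (-0.06, adjusted p = 0.23), 10 counts in every library (-0.07, adjusted p = 0.16) and the DESeq2 Wald test (-0.09, adjusted p = 0.13). PLOD2 instead fell in resistant 786-O, to 168 to 185 CPM from 280 to 292 (log2 -0.69 ± 0.053, adjusted p = 2.9e-08). ERO1A, which oxidises protein thiols in the endoplasmic reticulum, was lowest in A498, at 51.3 to 53.6 CPM against 72.9 to 76.3 in 786-O.

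Each of the 4 secreted members changed in a different way. STC2, a secreted glycoprotein of the stanniocalcin family, lies on chromosome 5 (GRCh38, 173314723 to 173328447, minus strand). It stood at 274, 260.5 and 269 CPM in 786-O, 31.0, 48.9 and 33.2 in resistant 786-O, 137, 139.7 and 140.2 in A498 and 29.2, 26.1 and 27.0 in resistant A498. As with LOX, both resistant groups lay below both parental lines. STC2 fell in resistant 786-O (log2 fold change -2.83 ± 0.12, adjusted p = 5e-11), and it was lower in resistant A498 than in A498 (-2.34 ± 0.13, adjusted p = 2.3e-10) and than in 786-O (-3.28 ± 0.13, adjusted p = 1.8e-11). Its relative STC1 moved the other way from 786-O, at 10.8, 11.9 and 10.8 CPM there, 22.4, 20.0 and 23.1 in resistant 786-O, 28.2, 30.3 and 27.9 in A498 and 23.3, 24.3 and 23.9 in resistant A498. STC1 was 1.95-fold higher in resistant 786-O, 2.58-fold higher in A498 and 2.13-fold higher in resistant A498 than in 786-O, with adjusted p-values of 1.3e-08, 1.2e-10 and 5.3e-09.

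ADM, the vasodilator peptide adrenomedullin, was kept up and lowest in A498. Its libraries held 60.2 to 61.7 CPM in 786-O, 72.3 to 76.3 in resistant 786-O, 38.8 to 43.4 in A498 and 58.9 to 61.2 in resistant A498. ADM in resistant 786-O passed as higher (log2 0.30 ± 0.048, adjusted p = 7e-05), but with the GC and length trends removed the change was 0.01 and was not called. ANGPTL4, an inhibitor of lipoprotein lipase, was at 8.68, 8.32 and 8.21 CPM in 786-O, 13.3, 72.3 and 13.9 in resistant 786-O, 19.8, 17.6 and 20.4 in A498 and 4.73, 4.07 and 4.93 in resistant A498. The second resistant 786-O library set the size of its change. The log2 difference between resistant 786-O and 786-O was 1.98 ± 0.48 with that library and 0.69 without it, and both passed the test (adjusted p = 0.0021 and 7.3e-10). The call of ANGPTL4 in A498 against 786-O (log2 1.20, adjusted p = 0.041) was lost on leaving out any one library of 786-O, A498 or resistant A498, with adjusted p-values of 0.051 to 0.088, although its A498 libraries did not overlap those of 786-O.

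Among the transcriptional regulators 1 of 5 was called higher and 3 were called lower in A498, against 36.1% and 38.2% of all genes. CITED2 competes with HIF1A for the coactivators CBP and p300. It stood at 95.6, 90.6 and 89.5 CPM in 786-O, 115, 102 and 116 in resistant 786-O, 55.6, 61.4 and 54.9 in A498 and 138, 146 and 156 in resistant A498. The 4 groups did not overlap, and CITED2 was 2.56-fold higher in resistant A498 than in A498 (log2 1.36 ± 0.064, adjusted p = 5.4e-11) and 1.59-fold higher than in 786-O (adjusted p = 2.1e-07). BHLHE41, a repressor of the basic helix-loop-helix family, was at 30.1 to 31.9 CPM in 786-O, 22.0 to 25.5 in resistant 786-O, 10.5 to 11.1 in A498 and 20.0 to 21.5 in resistant A498. Its paralog BHLHE40 differed less, between 180.3 and 239 CPM over all libraries, and was higher than 786-O in resistant 786-O (log2 0.25 ± 0.052) and parental A498 (0.29 ± 0.052). MXI1, an antagonist of MYC, was about equally low in resistant 786-O (6.98 to 7.23 CPM) and parental A498 (6.62 to 7.26), next to 11.4 to 12.95 in 786-O and 11.3 to 12.98 in resistant A498. ZNF395, a zinc finger protein, was at 44.7 to 45.5 CPM in 786-O and 69.1 to 72.8 in resistant A498 (log2 0.65 ± 0.11, adjusted p = 1.1e-04), while resistant 786-O held 45.1, 32.1 and 48.8 and did not pass the test.

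NDRG1, a stress-responsive gene that is among the most hypoxia-inducible transcripts, was lowest in 786-O. It stood at 230.2, 224 and 223 CPM there, 818, 573 and 872 in resistant 786-O, 669.9, 602 and 572 in A498 and 683, 742 and 763 in resistant A498. The 786-O libraries were below the other 9, which lay between 572 and 872 CPM. NDRG1 rose 3.34-fold in resistant 786-O (log2 1.74 ± 0.12, adjusted p = 4.9e-09) and was 2.72-fold higher in A498 than in 786-O (adjusted p = 1.8e-08). Resistant A498 was 3.23-fold above 786-O (adjusted p = 7.6e-09) and did not pass against A498 (log2 0.25 ± 0.11, adjusted p = 0.060), a call that appeared with library size alone, no filter, the 2 groups alone or the GC and length trends removed (0.24 to 0.42), and on leaving out replicate 1, 2 or 3 of resistant 786-O, replicate 1 of A498 or replicate 1 of resistant A498 (0.25 to 0.32, adjusted p = 3.9e-06 to 0.040). HIF1A mRNA was at 8.42 to 9.65 CPM in resistant 786-O and resistant A498, and a link to their NDRG1 level was not tested.

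DDIT4, an inhibitor of mTORC1 signalling, had the highest level per transcript length of all members in every group. Its mean in TPM (reads per length of exon, scaled to the same total in each library) was 848 for resistant A498, 678 for resistant 786-O, 542 for A498 and 459.6 for 786-O, and LOXL2 came next in each. In CPM DDIT4 was at 308, 289 and 293 in 786-O, 434, 307 and 459 in resistant 786-O, 329 to 347 in A498 and 461 to 497 in resistant A498. The second resistant 786-O library lay within the parental range, and the others exceeded it (log2 0.43 ± 0.10, adjusted p = 0.0018). With the GC and length trends removed this change was 0.16 and was not called. In A498 against 786-O DDIT4 did not pass (log2 0.18, adjusted p = 0.13), but it was called higher without the second resistant 786-O library (0.17, adjusted p = 9.5e-05), with the 2 groups alone (0.22, adjusted p = 1.1e-06) and at 0.23 to 0.26 with the other scalings, 10 counts in every library and the DESeq2 Wald test. TXNIP, which binds thioredoxin, was at 26.4 to 27.5 CPM in 786-O, 30.8, 49.2 and 30.6 in resistant 786-O, 29.0 to 32.3 in A498 and 36.9 to 40.1 in resistant A498. Its difference of A498 from 786-O (log2 0.16, adjusted p = 0.32) was called without the second resistant 786-O library (0.15, adjusted p = 0.0077), with the 2 groups alone (0.21, adjusted p = 7.3e-04) and with the GC and length trends removed (0.33, adjusted p = 0.035). WSB1, a subunit of a ubiquitin ligase, rose in resistant 786-O to 66.5, 44.2 and 58.0 CPM from 39.5 to 41.4 (log2 0.47 ± 0.10, adjusted p = 6.8e-04) and was at 58.1 to 59.8 CPM in resistant A498.

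The remaining members of this group were less abundant. ANKRD37, an ankyrin repeat protein, was at 1.73 to 2.05 CPM in 786-O, 3.13 to 3.50 in resistant 786-O, 4.69 to 5.20 in A498 and 2.93 to 3.28 in resistant A498. PPFIA4, a liprin of cell adhesion sites, was at 1.05 to 1.40, 1.30 to 1.61, 3.79 to 4.60 and 0.508 to 1.12 CPM in the same order. PPFIA4 was 3.46-fold higher in A498 than in 786-O (log2 1.79 ± 0.19, adjusted p = 6.9e-07) and passed in neither resistant line against 786-O. TMEM45A, a transmembrane protein, rose from 20.4 to 21.9 CPM in 786-O to 26.7 to 30.0 in resistant 786-O (log2 0.42 ± 0.063, adjusted p = 2.6e-05) and stood at 25.0 to 28.4 CPM in A498 and 33.4 to 34.4 in resistant A498.

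Glycogen enzymes differed by less than 2-fold in every comparison. GBE1, the branching enzyme, was at 49.0 to 50.5 CPM in 786-O, 46.4 to 47.4 in resistant 786-O, 62.2 to 73.2 in A498 and 62.0 to 64.0 in resistant A498. It was higher than in 786-O in A498 (log2 0.43 ± 0.056, adjusted p = 5.6e-06) and resistant A498 (0.35 ± 0.056, adjusted p = 7.2e-05). GYS1, glycogen synthase, was lowest in resistant A498 at 39.6 to 41.1 CPM, against 55.8 to 60.1 in 786-O (log2 -0.51 ± 0.085, adjusted p = 9.3e-05). PGM1, which interconverts glucose phosphates, was at 138 to 142 CPM in 786-O, 141 to 144 in resistant 786-O, 95.4 to 98.8 in A498 and 117 to 122 in resistant A498, with A498 below all others (log2 -0.53 ± 0.040, adjusted p = 1.1e-08).

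Taking the resistant lines by count, 15 members were called higher in resistant 786-O than in 786-O and 11 lower, where 35% and 33.5% of all genes were. The median log2 change was 0.11 over members and 0.03 over all genes. Calls beyond 2-fold were NDRG1 and ANGPTL4 up and LOX and STC2 down, next to 3235 genes up and 1147 down of the 19929 tested. ANGPTL4 stood at a log2 of 0.69 without the second resistant 786-O library. Scaling by library size alone moved the median of all genes up by 0.14 in this contrast. Against A498, the libraries labelled resistant A498 had 17 members higher and 14 lower (36.3% and 36.4% of all genes). Against 786-O they had 16 higher and 9 lower (31.6% and 32.1% of all genes). Scaled by library size alone, which moved the median of all genes up by 0.15, the last counts were 20 higher and 7 lower. The shares of all genes under that scaling were not taken, so these 2 counts are not a result about the members.

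**Figure D3:**
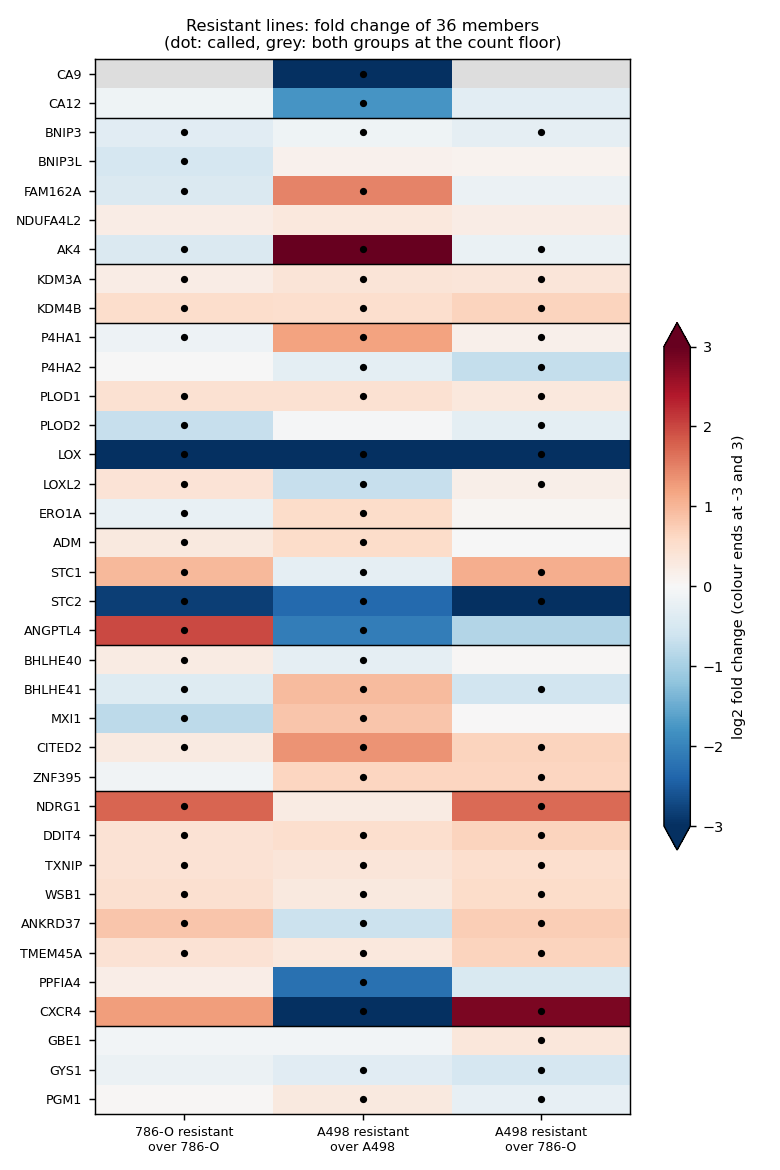
Colour scale of the log2 fold change of all 36 members (rows, grouped by role) for resistant 786-O over 786-O, resistant A498 over A498 and resistant A498 over 786-O, with dots for adjusted p under 0.05 and grey where both groups were at the count floor. LOX and STC2 are strongly lower in all 3 columns, and AK4, CXCR4, CA9 and CA12 change strongly against A498 but not in the same way against 786-O.

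The contrasts resistant 786-O minus 786-O and resistant A498 minus A498 share no library. The libraries labelled resistant A498 nonetheless resemble resistant 786-O (median r 0.985) more than A498 (0.886). Selection and a difference between cell lines cannot be told apart in the second contrast, so calls over both are not those of 2 independent lines. In both contrasts, 9 members were called higher, namely ADM, CITED2, DDIT4, KDM3A, KDM4B, PLOD1, TMEM45A, TXNIP and WSB1 (25% of members, 15.2% of all genes). LOX, STC2 and BNIP3 were called lower in both (8.33% of members, 14.3% of all genes). A further 11 were called in opposite directions (30.6%, against 21.7% of all genes), among them AK4, FAM162A, BHLHE41, MXI1 and STC1. ERO1A, also among them, lost its call in resistant 786-O (log2 -0.22, adjusted p = 0.022) without replicate 3 of 786-O (0.067). It was also lost without replicate 1 or 3 of resistant 786-O (0.13 and 0.18). Library size alone, 10 counts in every library, the 2 groups alone and removal of the GC and length trends lost it too. The limits of P4HA1 and LOXL2 are given above. The BNIP3 call in resistant A498 against A498 (log2 -0.12, adjusted p = 0.027) was lost in 6 fits that each left out 1 library (adjusted p = 0.090 to 0.26), with library size alone (0.30), with no filter (0.40) and with the GC and length trends removed (0.15). The libraries were replicates 1 and 3 of resistant 786-O, replicate 1 of A498 and each of resistant A498. The TXNIP call there was lost without replicate 2 or 3 of A498 or replicate 1 or 2 of resistant A498 (adjusted p = 0.055 to 0.099) and with 10 counts in every library (0.052), and the WSB1 call without replicate 3 of A498 (0.059). With the GC and length trends removed ADM, DDIT4, KDM4B, TMEM45A, TXNIP and WSB1 left the members higher in both and NDRG1 and P4HA1 entered, making 5. NDRG1 entered under 9 settings in all. Without the second resistant 786-O library CA12, GYS1 and P4HA2 joined those lower in both, making 6. The difference between the 2 changes was itself called for 25 members (69.4%), next to 68.3% of all genes, and this share is that of the background. Its extremes were AK4, with a log2 difference of 3.49 ± 0.083, and CXCR4, with -7.80 ± 0.50.

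Glycolytic and other HIF targets were read beside the members. In A498, 2 of 17 glycolytic targets were above and 10 below 786-O by the test, next to 36.1% and 38.2% of all genes, and the median log2 fold change was -0.24. ENO2 was at 5.81 to 7.20 CPM in A498 and 85.9 to 88.1 in 786-O (log2 -3.78 ± 0.063, adjusted p = 3.6e-16), PDK1 stood at a log2 fold change of -1.28, and ALDOC was at 28.6 to 31.5 CPM in A498 and 2.90 to 3.29 in 786-O (log2 3.29 ± 0.16, adjusted p = 5.4e-11). In resistant 786-O the test called 3 above and 10 below the parental line, next to 35% and 33.5% of all genes, and the median was -0.31. Of 8 tested targets often given as HIF2A-dependent, 2 were higher (IGFBP3, log2 1.65, and PLIN2, 1.69) and 4 lower in A498, with CCND1 at -1.004, POU5F1 at -1.91 and SCARB1 at -1.11. IGFBP3 also rose in resistant 786-O, from 280 to 305 CPM to 1023, 1162 and 1083 (log2 1.91 ± 0.054, adjusted p = 5.7e-13).

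The second library of resistant 786-O differed from the other 2 in many members. Over 29 members at 10 CPM or more, the SD of its log2 deviation from the mean of the other 2 was 0.568, while replicates 1 and 3 differed with an SD of 0.0900. Over 9925 genes at that level the values were 0.283 and 0.114. The members' SD rests largely on ANGPTL4, which deviated by 2.37, with CA12 next at 0.89. The SD without ANGPTL4 was not taken. The deviation exceeded the difference between the other 2 in 24 of the 29 members (82.8%) and in 72.8% of genes. ANGPTL4 was 5.17 times, CA12 1.85 times, TXNIP 1.59 times and STC2 1.52 times the mean of the other 2, while NDRG1, DDIT4 and ZNF395 were at 0.679, 0.687 and 0.688 of it. EPAS1 was at 0.750 of that mean. Without this library the rule found 10 members that followed HIF1A and 12 kept up, and 15 members were called higher and 14 lower in resistant 786-O. The shares of all genes in that fit were not taken, so these counts are not a result about the members.

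**Figure D4:**
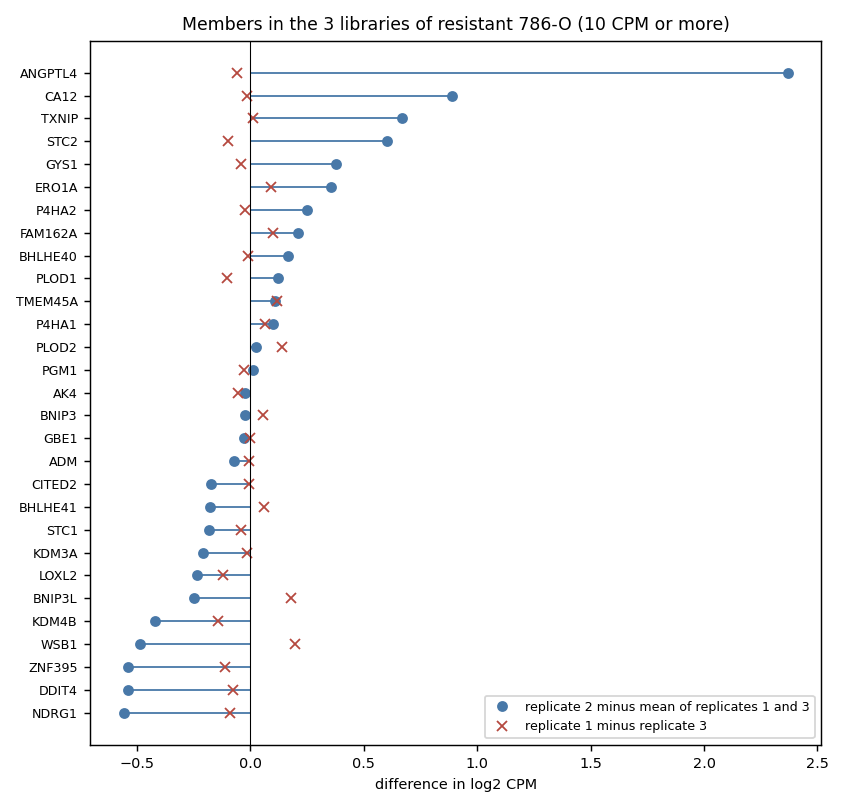
Difference in log2 CPM between the second resistant 786-O library and the mean of replicates 1 and 3 (points with lines) and between replicates 1 and 3 (crosses), for 29 members at 10 CPM or more. ANGPTL4 stands at 2.37, CA12 at 0.89 and NDRG1 at -0.56, whereas the crosses stay between -0.14 and 0.20.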

How the data were processed

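The members and the other lists were chosen with earlier results of these data known. The authors deposited raw counts per gene and library, without normalization. Per the paper and the submitters' processing notes, reads converted with bcl2fastq 2.19.0 were trimmed with Trimmomatic 0.36.6, aligned to GRCh38 with HISAT2 2.1.0 and counted over exons by strand with featureCounts 1.6.3 and a GENCODE annotation. Sequencing used Illumina instruments of 2 kinds, whose libraries are not named. Members of families with near-identical copies, such as BNIP3 with its pseudogenes, may lose reads in counting.

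Libraries were grouped by their labels. Tests used edgeR 4.0.16 (which loads limma 3.58.1), with DESeq2 1.42.0 as an alternative, under R 4.3.3. Tables and plots came from numpy 2.4.6, pandas 2.3.3 and matplotlib 3.10.9 under Python 3.11.15. Genes passed filterByExpr (minimum count 10, minimum total 15), were scaled by TMM, and entered 1 quasi-likelihood model of 12 libraries and 4 group means. Benjamini-Hochberg adjustment covered all 19929 genes, and the threshold was 0.05. Standard errors are the absolute log2 fold change over the square root of F, and fold changes use a prior count of 0.125. The study names a test of 2 groups per gene, which was run as an alternative because raw counts need a count model. Ratios of summed counts have exact 95% intervals. They and the floor of 3 counts over a group cover counting error only. TPM use all annotated exons of a gene. Gene positions are from a later GENCODE release of the same assembly.

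All 36 members were described whatever their result. Of the glycolytic and HIF2A-dependent lists, genes called beyond 2-fold in a contrast were eligible to be named. An eligible gene is not reported here. Promoters were printed for the 2 members with the largest fold change in each direction and the 2 highest kept up. Alternatives were other scalings, DESeq2, other filters, the study's test, 2 groups alone, a replicate block, removal of GC and length trends, a minimum fold, and each library left out. The code was tested on simulated data. No per-sample column was left out.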

Additional observations from a re-analysis of the deposited data

Results flagged for a closer look

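For 25 of the 36 members the change from A498 to resistant A498 differed from the change from 786-O to resistant 786-O by the interaction term of the fit, as it did for 68.3% of all genes tested. The values below are log2 differences between the changes. Members of which resistant A498 lost more, or gained less, were CXCR4 (-7.80), ANGPTL4 (-4.05), PPFIA4 (-2.43), CA12 (-1.63), NDRG1 (-1.49), ANKRD37 (-1.47), STC1 (-1.24), LOX (-1.17), LOXL2 (-1.10), BHLHE40 (-0.52) and P4HA2 (-0.28). Members of which it lost less, or gained more, were AK4 (3.49), FAM162A (1.93), MXI1 (1.61), P4HA1 (1.36), BHLHE41 (1.34), CITED2 (1.08), ERO1A (0.76), ZNF395 (0.75), PLOD2 (0.66), BNIP3L (0.64), STC2 (0.49), ADM (0.26), PGM1 (0.26) and BNIP3 (0.22). The ANGPTL4 value was -2.76 without the second resistant 786-O library. In CXCR4 786-O and resistant 786-O held 2 to 8 counts a library, so the size of its difference depends on the prior count. Because the libraries labelled resistant A498 resemble 786-O, a difference between cell lines and one between the responses to selection cannot be told apart in these values.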

How the results depend on the processing

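Of the counts of members recomputed under other settings, 281 stayed within 1.5 times the reported one and 25 did not. With the test the study names, run on unscaled counts at an unadjusted threshold, 2 members were higher in A498 than in 786-O, 9 were higher and 3 lower in resistant 786-O, 5 higher and 6 lower in resistant A498 against A498, and 2 higher and 23 lower in resistant A498 against 786-O. The same test gave 1 member higher in both resistant contrasts and 1 in opposite directions. Unscaled counts also carry the differences in total counts between the groups. Requiring an absolute log2 fold change over 1 left 8 higher and 4 lower in A498, 2 and 2 in resistant 786-O, 4 and 7 in resistant A498 against A498 and 3 and 2 against 786-O. Of the 19929 genes tested it left 3953 higher and 2407 lower in A498 and 3235 and 1147 in resistant 786-O. In resistant A498 it left 2856 and 3281 genes against A498 and 2728 and 1255 against 786-O. Among the members it also left 15 differences between the changes, 4 members following HIF1A, 25 kept up, 0 higher in both resistant contrasts and 1 in opposite directions. Against 786-O alone 14 members followed HIF1A. With the GC and length trends removed 5 members were higher in both resistant contrasts. Leaving out 1 library at a time gave 2 to 6 members lower in both, the highest without the second resistant 786-O library. The counts over both contrasts and the count without CA9 were added after seeing the data. The causes were not tested. Counts under another setting that have no share or count of all genes beside them are not a result about the members.

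Single members gave 3546 values, of which 3398 kept their call and direction, 68 lost the call, 69 gained it and 11 reversed. A sign that changed in a value called under neither setting (96 cases) was counted as kept. With the GC and length trends removed the log2 values that reversed were 0.21 for BNIP3L and -0.42 for KDM4B in A498 against 786-O, -0.011 for KDM4B, 0.13 for P4HA1 and 0.23 for GBE1 in resistant 786-O, and 0.79 for KDM4B, 0.51 for PLOD1, -0.52 for GBE1 and 0.45 for GYS1 in the difference of changes. ADM in resistant A498 against 786-O was 0.13 with library size alone. The TXNIP difference of changes ran from -0.20 to 0.18 over the libraries left out.

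The labels number the replicates alike in all groups, but same-numbered libraries did not deviate together, with correlations of -0.20 to 0.18 and 2 of 18 over 0.1. With the replicate number as a block 14 members were higher and 14 lower in A498, 15 and 11 in resistant 786-O, 17 and 14 in resistant A498 against A498, and 16 and 9 against 786-O, and 6 of 18 libraries correlated best with their own number. The member counts equal those of the main fit, and shares of all genes with the block are not given. The study's test was not run for single fold changes, and neither it nor the fit of 2 groups applies to the classes or the difference of changes. CA9, NDUFA4L2 and, outside A498, CXCR4 were limited by depth.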

Other observations

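Among the oxygen-sensing genes not described above, VHL mRNA was at 22.6 to 25.8 CPM in 786-O, 19.2 to 23.3 in resistant 786-O, 16.0 to 17.9 in A498 and 24.4 to 27.1 in resistant A498, and was called lower in A498 than in 786-O (log2 -0.54 ± 0.085, adjusted p = 3.6e-05). EGLN1, the main prolyl hydroxylase acting on HIF, was at 10.7 to 12.2 CPM in 786-O and at 19.6, 16.4 and 22.5 CPM in resistant 786-O (log2 0.78 ± 0.11, adjusted p = 2.3e-05), and A498 and resistant A498 were called higher than 786-O by 0.75 ± 0.12 and 0.57 ± 0.12. HIF1AN, which hydroxylates the HIF alpha subunits at an asparagine, lay between 90.7 and 105 CPM in all 12 libraries. The coactivator gene CREBBP was higher in A498 than in 786-O (log2 0.35 ± 0.095, adjusted p = 0.0038), and EP300 was higher in resistant A498 than in 786-O (0.38 ± 0.078, adjusted p = 5.4e-04).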
